A study of Mus musculus with 24 samples.

Results

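Whether dietary restriction acts on the liver in the same way with and without intact DNA repair was asked by setting the diet response of Ercc1 mutant mice against that of wild types. The data are ribosome profiling libraries, counts of the mRNA fragments that translating ribosomes protected. All 16 libraries of 16-week-old mice were taken, of 24 in the study. The readout is the interaction, the mutant diet response minus the wild-type diet response, on a log2 scale. Of 12211 genes tested over the whole table, 98 differed between the genotypes in their diet response.

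The mice were male F1 hybrids of C57BL6J and FVBN, housed alone, with 4 livers in each of 4 groups. Mutants on 30% dietary restriction (DR), here restricted mutants, received 1.6 g of food a day, and mutants fed ad libitum (AL), here fed mutants, ate 2.3 g on average. Restricted wild types received 2.1 g, and fed wild types ate 3.0 g. Restriction began at 7 weeks of age and reached 30% from week 9. The mutants carried 1 truncated and 1 null allele (Ercc1 d/-) in every cell, so a difference in liver need not start there. The labels number the livers of a group and say no more of their origin, so p-values measure the spread between these samples. RNA levels were not analysed here, so a change in footprints is not split into mRNA level and translation.

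ERCC1 forms a nuclease with XPF that cuts out damaged DNA and opens interstrand crosslinks. Mutants with little of it age early, and restriction is known to slow that decline. In liver, restriction is known to change lipid and amino acid metabolism and the genes that growth hormone sets differently in males and females. The cytochrome P450 enzymes of the Cyp2b, Cyp2c and Cyp3a families oxidise drugs and steroids under the control of the receptors CAR and PXR. SREBP2 is the factor that switches on cholesterol synthesis when sterols run low.

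Total counts were 13366558 to 27084259 per library. Ercc1 had 4 to 13 counts in restricted mutants, 5 to 15 in fed mutants, 34 to 110 in restricted wild types and 38 to 59 in fed wild types, which fits the labels. Albumin took 15.5 ± 1.58% of the counts in restricted mutants, 8.89 ± 0.70% in fed mutants, 16.4 ± 1.85% in restricted wild types and 9.92 ± 0.66% in fed wild types (SD, n = 4 each). Pairs of replicates correlated across genes at 0.962 to 0.979 in restricted mutants, 0.971 to 0.982 in fed mutants, 0.944 to 0.967 in restricted wild types and 0.976 to 0.985 in fed wild types. None of 10 lists of cell type markers, with 1 to 19 members tested, had a member with a called interaction. Of all genes 0.803% were called, so lists of this size can lack a call whether or not cell types shifted. The 19 macrophage markers summed to 631 to 801 CPM (counts scaled to the library total) in restricted mutants, 598 to 795 in fed mutants, 380 to 583 in restricted wild types and 303 to 367 in fed wild types. Of them 18 had an interaction below 0, with a median of -0.38, and 7 (36.8%) had an unadjusted p under 0.05, against 12.7% of all genes. The 16 stellate cell and fibroblast markers summed to 754 to 1003 CPM in restricted mutants, 606 to 812 in fed mutants, 576 to 1136 in restricted wild types and 388 to 596 in fed wild types. Of these 12 had an interaction below 0, with a median of -0.54, and 6 (37.5%) had an unadjusted p under 0.05. On restriction 7 of the 16 rose in wild types and 1 in mutants. Of 15 endothelial markers 11 had an interaction below 0, with a median of -0.36, and 4 (26.7%) had an unadjusted p under 0.05. In the B and plasma cell list, with 4 members tested and all 4 below 0, the immunoglobulin chain Igkc had the smallest p, with an interaction of -2.99 ± 0.72 (adjusted p = 0.053). In whole liver, fewer cells of a type and less RNA per cell cannot be told apart, and the part of such shifts in the results below was not tested.

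Of the 98 called genes, 0.803% of those tested, 63 (0.516%) had a positive interaction, so that restriction moved them further up or less far down in mutants, and 35 (0.287%) had a negative one. At an unadjusted p under 0.05 there were 1552 genes, 12.7%. In 87 of the 98 the difference was larger than 2-fold. The diet response alone was called in 1420 genes in mutants (11.6%; 682 or 5.59% up, 738 or 6.04% down) and in 1483 in wild types (12.1%; 664 or 5.44% up, 819 or 6.71% down). Leaving out single libraries moved the interaction count to 63 without fed mutant 4, 64 without restricted mutant 1, 65 without fed wild type 3, 177 without restricted wild type 2 and 204 without restricted wild type 1. It moved the diet count in mutants to 933 without restricted mutant 1, and that in wild types to 939 without restricted wild type 4. DESeq2 called 279 genes in the interaction, with all 98 among them.

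In 65 of the 98 genes (66.3%) the estimated diet responses had opposite signs in the 2 genotypes, against 34.3% of all tested genes. The call selects genes whose 2 responses differ, which favours opposite signs, so this describes the called genes and is no test. An estimate near 0 also counts by its sign, as for Aass in wild types (-0.09). In 21 the response had the same sign and was larger in mutants, and in 12 it was larger in wild types. The response itself passed the test in both genotypes for 19 genes, in mutants alone for 45 and in wild types alone for 34. Of the 63 positive genes 52 stood lower in fed mutants than in fed wild types, and of the 35 negative genes 29 stood higher there. The fed libraries enter both values, so this is a description. The difference between the genotypes was smaller on restriction for 47 of the 98 genes (48%) and larger for 51 (52%). Over all tested genes it was smaller for 44.3% and larger for 55.7%, so the called genes are near that share. A set of 47 genes was called in every one of the 16 fits that left out 1 library, and all 98 kept their sign there. The genes described below belong to that set unless a loss is named.

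**Figure D1:**
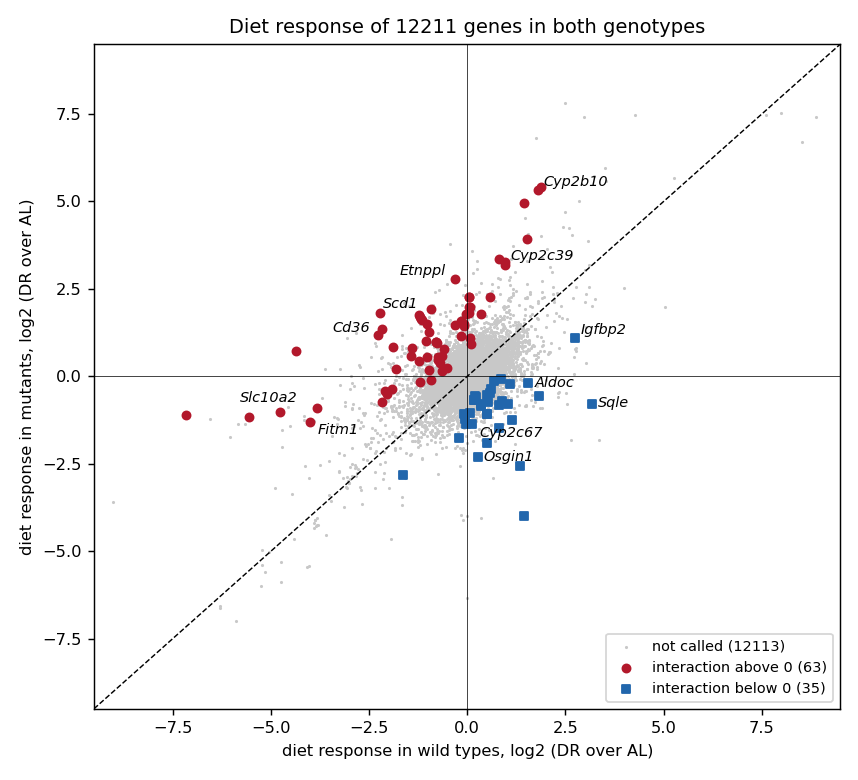
Diet response (log2, restricted over fed) of each of 12211 genes in mutants (vertical axis) against that in wild types (horizontal axis). Red circles mark the 63 genes with a called positive interaction and blue squares the 35 with a negative one. Distance from the dashed diagonal is the interaction, and most called genes lie in the quadrants where the estimated responses have opposite signs. A sign need not mean a measured change. The response passed the test in both genotypes for 19 of the 98 called genes, in mutants alone for 45 and in wild types alone for 34.

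Several genes of fatty acid uptake and storage responded differently in the 2 genotypes. Cd36, the main fatty acid translocase of the cell surface, rose on restriction in mutants and fell in wild types. Its level was 192, 189.9, 220.2 and 209 CPM in restricted mutants, against 90.2, 77.3, 63.8 and 83.2 CPM in fed mutants, and 24.3, 27.7, 36 and 34.3 CPM in restricted wild types, against 139, 76, 152 and 187 CPM in fed wild types. Neither pair of diet groups overlapped, and restricted mutants stood above every other library while restricted wild types stood below every other one. The response was 1.37 ± 0.25 (adjusted p = 0.000705) in mutants and -2.18 ± 0.26 (adjusted p = 4.36e-06) in wild types, and the interaction of 3.55 ± 0.36 (adjusted p = 1.13e-05) had the smallest p of all genes.

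Fitm1, which helps to form lipid droplets, fell in both genotypes and much further in wild types. It had 3.69, 3.17, 4.8 and 5 CPM in restricted mutants, against 8.94, 11.4, 11.3 and 9.42 CPM in fed mutants, and 0.916, 2.71, 0.839 and 0.728 CPM in restricted wild types, against 17.7, 16.9, 28 and 19.6 CPM in fed wild types. All groups were apart. The response was -1.30 in mutants and -4.01 in wild types, and the interaction was 2.70 ± 0.39 (adjusted p = 0.000564). Mogat1, an acyltransferase that makes diacylglycerol, had low levels, at 1.65 to 1.94 CPM in restricted mutants, 2.02 to 4.82 CPM in fed mutants, 0.0982 to 0.704 CPM in restricted wild types and 2.82 to 8.44 CPM in fed wild types. The response was -0.92 ± 0.38 (adjusted p = 0.126) in mutants and -3.83 ± 0.44 (adjusted p = 1.81e-06) in wild types. Its interaction was 2.91 ± 0.58 (adjusted p = 0.0114), and it was not called in a fit with a filter at 5 CPM in at least 4 libraries. Of the 4 groups only fed wild types held libraries above 5 CPM, and a gene that this filter drops also counts as not called.

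Of 32 tested genes of lipid uptake and lipid droplets, 4 had a called positive interaction (Cd36, Fitm1, Pnpla2 and Vldlr) and none a negative one. Of all genes 0.516% were called positive and 0.287% negative. The list had 21 estimates above 0 and 11 below. The median was 0.25, beside -0.0191 over all genes. Pnpla2, the lipase that opens triglyceride stores, had an interaction of 1.43 ± 0.33 (adjusted p = 0.0364) and was called, among the fits that left out 1 library, only in those without restricted mutant 3 or 4, fed mutant 2, restricted wild type 1 or 2 or fed wild type 2 (adjusted p up to 0.103), and was not called in a fit of the 16 libraries alone and a fit with no filter on low counts. Vldlr, a lipoprotein receptor, had 2.01 to 4.02 CPM in restricted mutants, 0.19 to 0.422 CPM in fed mutants, 6.67 to 9.01 CPM in restricted wild types and 2.94 to 5.63 CPM in fed wild types. Its interaction was 2.55 ± 0.61 (adjusted p = 0.0403), and it was called, among the fits that left out 1 library, only in those without restricted mutant 4, restricted wild type 1 or 2 or fed wild type 2 (adjusted p up to 0.1). Both rose on restriction in mutants, by 1.78 and 3.35, and did not pass in wild types, at 0.35 and 0.80.

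Scd1, the desaturase that makes monounsaturated fatty acids, had 2378, 1786, 1782 and 2757 CPM in restricted mutants, against 989.7, 747, 282 and 833 CPM in fed mutants, and 3328, 4092, 2131 and 3709 CPM in restricted wild types, against 8691, 8788, 6220.3 and 5485 CPM in fed wild types. In mutants all restricted libraries stood above all fed ones, and in wild types all restricted ones stood below all fed ones. The response was 1.61 ± 0.41 (adjusted p = 0.013) in mutants and -1.14 ± 0.40 (adjusted p = 0.0704) in wild types, and the interaction was 2.75 ± 0.57 (adjusted p = 0.0226). Scd1 lost its call without restricted mutant 1 or restricted wild type 3 (adjusted p up to 0.0541). The counts of its neighbours Scd2, Scd3 and Scd4 ran in parallel, with interactions of 2.89, 2.81 and 2.97. The treatment of reads that match several genes is not given in the sources used here, so near-identical copies are uncertain one by one. Scd3 was called, among the fits that left out 1 library, only in those without restricted mutant 3, fed mutant 1 or restricted wild type 1 or 2 (adjusted p up to 0.0826), and was not called in a fit with no filter on low counts, and Scd4 lost its call without restricted mutant 1, restricted wild type 3 or fed wild type 1 (adjusted p up to 0.0542). Of 33 tested genes of fatty acid and triglyceride synthesis, 3 had a called positive interaction (Mogat1, Scd1 and Scd2) and none a negative one. Of all genes 0.516% were called positive and 0.287% negative. The list had 17 estimates above 0 and 16 below, with a median of 0.11.

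Insig2, which holds the SREBP factors back in the endoplasmic reticulum, also turned round. It had 43.3 to 87.9 CPM in restricted mutants, 28.1 to 35.2 CPM in fed mutants, 48 to 68.8 CPM in restricted wild types and 56.1 to 167 CPM in fed wild types. The response was 0.99 ± 0.26 (adjusted p = 0.0142) in mutants and -0.80 ± 0.26 (adjusted p = 0.0435) in wild types, with an interaction of 1.78 ± 0.37 (adjusted p = 0.0163). Acss3, a mitochondrial enzyme that activates propionate, had 35.7 to 69.9 CPM in restricted mutants, 19.9 to 30.4 CPM in fed mutants, 38.3 to 70.3 CPM in restricted wild types and 61.2 to 104 CPM in fed wild types, and its interaction was 1.76 ± 0.32 (adjusted p = 0.00484). Insig2 and Acss3 were chosen after their values were seen.

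**Figure D2:**
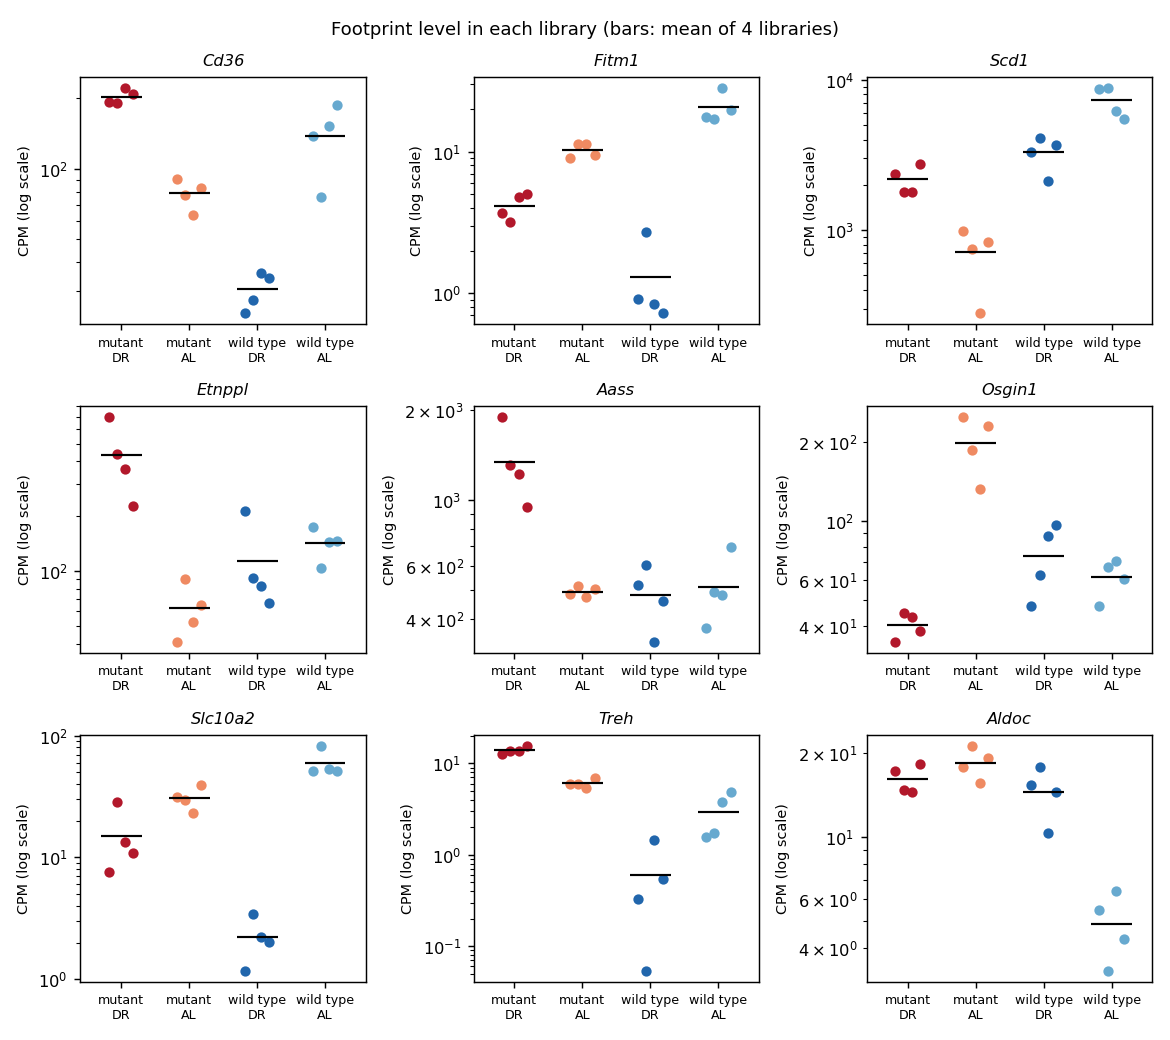
Footprint level of 9 genes with a called interaction in each of the 16 libraries (CPM, log scale), in restricted mutants, fed mutants, restricted wild types and fed wild types, with bars at the group means. Restricted mutants lie above fed mutants and restricted wild types below fed wild types in Cd36, Scd1 and Treh. In Etnppl, Aass and Osgin1 the diet groups are apart in mutants and overlap in wild types.

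The gene of the ileal bile acid transporter, Slc10a2, which bile duct cells also express, lost most of its footprints on restriction in wild types. It had 7.65, 28.5, 13.3 and 10.9 CPM in restricted mutants, against 31.3, 29.4, 23.3 and 39.2 CPM in fed mutants, and 1.18, 3.41, 2.21 and 2 CPM in restricted wild types, against 51, 82, 53 and 50.8 CPM in fed wild types. The wild-type groups were far apart, and restricted mutant 2 stood inside the range of fed mutants. The response was -1.02 ± 0.38 (adjusted p = 0.0906) in mutants and -4.77 ± 0.46 (adjusted p = 7e-07) in wild types, with an interaction of 3.75 ± 0.57 (adjusted p = 0.00165). Cholangiocyte markers summed to 17.8 to 77.2 CPM in restricted mutants, 21.1 to 29.1 in fed mutants, 17.6 to 29.4 in restricted wild types and 18.5 to 21.9 in fed wild types, with 0 of 6 tested members called. Of 28 tested bile acid genes 15 had an interaction above 0 and 13 below, and 2 were called positive, against 0.516% of all genes. The called genes were the peroxisomal side-chain oxidase Acox2 at 1.36 ± 0.29 (adjusted p = 0.0205) and the sterol exporter Abcg5 at 1.29 ± 0.31 (adjusted p = 0.0494). Acox2 lost its call without restricted mutant 1 or fed wild type 4 (adjusted p up to 0.0576), and was not called in a fit of the 16 libraries alone. Abcg5 was called, among the fits that left out 1 library, only in those without restricted mutant 3, fed mutant 3, restricted wild type 1 or 2 or fed wild type 2 (adjusted p up to 0.125), and was not called in a fit of the 16 libraries alone, a fit with RLE scaling and a fit with no filter on low counts. With the replicate number as a block Abcg5 was not called either.

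Treh, the gene of the sugar-splitting enzyme trehalase, had 12.6, 13.8, 13.8 and 15.4 CPM in restricted mutants, against 5.96, 5.9, 5.42 and 6.97 CPM in fed mutants, and 0.327, 0.0541, 1.46 and 0.546 CPM in restricted wild types, against 1.57, 1.72, 3.76 and 4.8 CPM in fed wild types. Every mutant library stood above every wild-type one, and restriction moved the genotypes further apart. The response was 1.19 ± 0.39 (adjusted p = 0.0512) in mutants and -2.26 ± 0.49 (adjusted p = 0.00345) in wild types, with an interaction of 3.45 ± 0.63 (adjusted p = 0.00618).

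Drug-metabolising P450 genes of 3 gene clusters were among the called genes. Of 59 tested genes of drug metabolism 8 had a called positive interaction and none a negative one, with a median of 0.20. Of all genes 0.516% had a positive and 0.287% a negative one. The list does not hold Cyp2c40, Cyp2c67, Cyp2c68 and Cyp2c69, described below, which were called negative, so its lack of negative calls depends on its membership. In the Cyp2b cluster of chromosome 7, restriction raised footprints in both genotypes and several times more in mutants. Cyp2b10, a classical CAR target, had 75.7, 38.8, 45 and 42.2 CPM in restricted mutants, against 0.761, 1.16, 2.74 and 0.357 CPM in fed mutants, and 207, 116, 179 and 181 CPM in restricted wild types, against 41.4, 51.6, 30.1 and 74.4 CPM in fed wild types. Fed mutants were nearly empty, and restricted mutants reached the range of fed wild types without reaching restricted wild types. The response was 5.34 ± 0.46 (adjusted p = 1.76e-07) in mutants and 1.79 ± 0.37 (adjusted p = 0.00299) in wild types, with an interaction of 3.55 ± 0.57 (adjusted p = 0.00239).

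Cyp2b13 and Cyp2b9, which are higher in female liver, had interactions of 3.54 and 3.51, and Cyp2b23 had 2.40. Thus 4 of the 5 tested Cyp2b genes were called. The fifth, Cyp2b19, had an interaction of 2.12 ± 0.57 (adjusted p = 0.0795). Cyp2b13 had 68 to 136 CPM in restricted mutants, 1.03 to 4.05 CPM in fed mutants, 181 to 439.9 CPM in restricted wild types and 58.1 to 97.3 CPM in fed wild types.

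The Cyp2c cluster of chromosome 19 split into adjoining blocks of opposite direction. Cyp2c29, Cyp2c38 and Cyp2c39 lie between positions 39287044 and 39569568 (GRCm38.p6) and had positive interactions. The annotated span of Cyp2c39 encloses Cyp2c38 on the opposite strand, and the strand setting of the counting is not stated, so these neighbours are uncertain one by one. Cyp2c67, Cyp2c68, Cyp2c40 and Cyp2c69 follow between 39608844 and 39886769 and had negative ones. The next 3 genes, Cyp2c37, Cyp2c54 and Cyp2c50, had values of 0.48, 0.62 and 0.79 and were not called. In all, 7 of the 15 tested Cyp2c genes were called.

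Cyp2c39, which oxidises retinoic acid, had 792, 900.2, 746 and 694 CPM in restricted mutants, against 89.4, 81.9, 81.4 and 71.2 CPM in fed mutants, and 890.1, 736, 881 and 1019 CPM in restricted wild types, against 425, 499, 384 and 515 CPM in fed wild types. Fed mutants stood far below all other groups, while the restricted groups overlapped between the genotypes. The response was 3.27 ± 0.20 (adjusted p = 4.65e-11) in mutants and 0.95 ± 0.18 (adjusted p = 0.0011) in wild types, with an interaction of 2.32 ± 0.26 (adjusted p = 1.64e-05). Cyp2c38 ran alongside, with an interaction of 2.22 ± 0.30 (adjusted p = 0.000246). Cyp2c29, a CAR target, turned round, with 374, 389, 358 and 491 CPM in restricted mutants, against 131, 169, 144 and 132 CPM in fed mutants, and 607, 554, 821 and 980.1 CPM in restricted wild types, against 1182, 2095, 1065 and 1684 CPM in fed wild types. The response was 1.48 ± 0.21 (adjusted p = 2.85e-05) in mutants and -1.02 ± 0.21 (adjusted p = 0.00201) in wild types, and the interaction was 2.51 ± 0.30 (adjusted p = 3.44e-05). Restricted mutants still stood below every wild-type library.

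Cyp2c67 stands for the opposite block. It had 335, 451, 422 and 306 CPM in restricted mutants, against 1260.5, 762, 1050.3 and 853 CPM in fed mutants, and 389, 697, 668 and 715 CPM in restricted wild types, against 535, 582, 564 and 588 CPM in fed wild types. In mutants all restricted libraries were below all fed ones, whereas the restricted wild types spanned the fed ones. The response was -1.37 ± 0.17 (adjusted p = 5.81e-06) in mutants and 0.12 ± 0.17 (adjusted p = 0.707) in wild types, with an interaction of -1.50 ± 0.24 (adjusted p = 0.00165). Cyp2c40, Cyp2c69 and Cyp2c68 had interactions of -1.58, -1.60 and -1.27. In each of these 4 genes restricted wild type 1 was the lowest of its group.

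The bases upstream of these genes are shown because near paralogs of one cluster had interactions of opposite sign. The windows are the 250 bases before the start site in the RefSeq table of GRCm38.p6, for Cyp2c39 at chr19:39510572-39510821 (+ strand), Cyp2c38 at chr19:39463076-39463325 (- strand), Cyp2c40 at chr19:39812815-39813064 (- strand) and Cyp2c69 at chr19:39886770-39887019 (- strand). For Cyp2c39 the table lists 2 start sites and the downstream one was used. Capitals mark the longest run of bases that all called genes of one direction share, 12 bases among the 3 positive genes and 26 among the 4 negative ones.
Cyp2c39: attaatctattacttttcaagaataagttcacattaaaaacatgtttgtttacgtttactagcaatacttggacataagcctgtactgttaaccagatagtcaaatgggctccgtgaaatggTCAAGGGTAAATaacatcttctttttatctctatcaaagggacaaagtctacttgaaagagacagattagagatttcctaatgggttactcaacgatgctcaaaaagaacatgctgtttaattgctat
Cyp2c38: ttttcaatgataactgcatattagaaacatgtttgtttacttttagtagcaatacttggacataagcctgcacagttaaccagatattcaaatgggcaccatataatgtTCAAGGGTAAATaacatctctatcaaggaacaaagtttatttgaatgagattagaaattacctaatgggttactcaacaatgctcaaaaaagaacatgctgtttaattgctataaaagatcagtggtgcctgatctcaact
Cyp2c40: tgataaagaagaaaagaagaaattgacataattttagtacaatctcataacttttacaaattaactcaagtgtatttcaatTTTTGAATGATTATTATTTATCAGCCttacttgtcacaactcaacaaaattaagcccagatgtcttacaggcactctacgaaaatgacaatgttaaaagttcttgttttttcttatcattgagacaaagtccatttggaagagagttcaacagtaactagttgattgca
Cyp2c69: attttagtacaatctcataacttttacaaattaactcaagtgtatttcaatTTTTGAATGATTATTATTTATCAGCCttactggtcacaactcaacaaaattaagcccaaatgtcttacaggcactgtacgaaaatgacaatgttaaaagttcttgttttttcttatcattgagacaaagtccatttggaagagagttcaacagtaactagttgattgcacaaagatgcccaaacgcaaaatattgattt
Neither run occurs in the windows of the genes of the other direction. Over all 32851 windows the 12-base run occurs in 5 and the 26-base run in 4. Each run was picked because the paralogs of its block share it, so its absence from the other block is no test. Identity in global alignments of the Cyp2c windows was 68.1 to 71.0% for the 3 pairs of positive genes. It was 48.2 to 91.3% for the 6 pairs of negative genes and 50.3 to 61.3% for the 12 pairs of opposite direction. The 48.2% belongs to Cyp2c40 and Cyp2c67, whose windows begin at different distances from their shared run. Windows fixed to the annotated start count such a shift as difference, so low identity need not mean unlike bases. These values describe the sequences and name no site or cause.

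In the Cyp3a cluster of chromosome 5 restriction raised footprints of the called genes in mutants, and their responses in wild types, 0.03 to 0.07, did not pass. Cyp3a41a, which is higher in female liver, had 1145, 1059, 1159 and 1103 CPM in restricted mutants, against 247, 253, 189 and 232 CPM in fed mutants, and 1070.5, 287, 572 and 547 CPM in restricted wild types, against 558, 459.6, 633 and 761 CPM in fed wild types. Restricted mutants stood above the other groups except restricted wild type 1, which was in their range. The response was 2.28 ± 0.26 (adjusted p = 1.96e-06) in mutants and 0.04 ± 0.25 (adjusted p = 0.946) in wild types, with an interaction of 2.24 ± 0.35 (adjusted p = 0.00165). Cyp3a41b, Cyp3a44 and Cyp3a16 had interactions of 2.24, 1.96 and 1.92. Cyp3a11, a main PXR target, had 2671 to 3097 CPM in restricted mutants, 638 to 938 CPM in fed mutants, 1157 to 4078 CPM in restricted wild types and 1731 to 2528 CPM in fed wild types and an interaction of 1.77 ± 0.35 (adjusted p = 0.012). Thus 5 of the 9 tested Cyp3a genes were called, and all 9 had values above 0. Cyp3a16 lost its call without restricted mutant 1, fed mutant 3 or 4, restricted wild type 3 or 4 or fed wild type 4 (adjusted p up to 0.0613), and was not called in a fit of the 16 libraries alone and a fit with no filter on low counts. Cyp2b19, Cyp2b23, Cyp2c37, Cyp2c50, Cyp2c54, Cyp2c68, Cyp3a11 and Cyp3a16 were named after their values were seen, to complete the families. Copies within all 3 clusters may share reads.

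**Figure D3:**
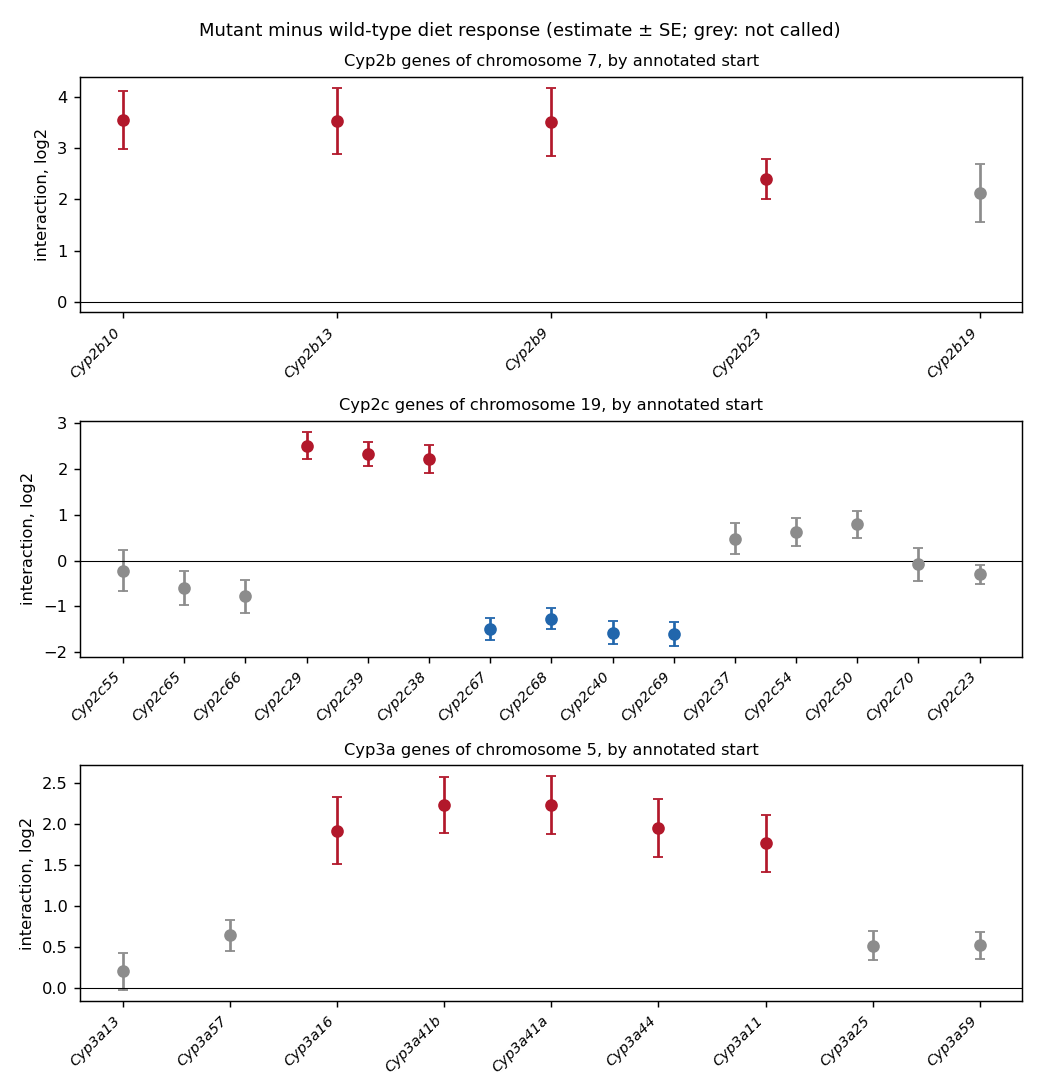
Interaction (mutant minus wild-type diet response, log2, estimate ± SE) of every tested Cyp2b, Cyp2c and Cyp3a gene, placed by annotated start. Red marks called positive genes, blue called negative genes and grey genes that were not called, and the called Cyp2c genes form 2 adjoining runs of opposite sign.

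Many of these P450 genes are sex-biased. Of 43 tested genes that are higher in female liver, 7 had a called positive and 2 a called negative interaction (Cyp2c40 and Cyp2c69). Of all genes 0.516% were called positive and 0.287% negative. The list had 28 estimates above 0 and 15 below, with a median of 0.60. More members rose than fell on restriction in both genotypes, with 27 up and 3 down in mutants and 21 up and 1 down in wild types. The median response was 2.13 in mutants and 0.92 in wild types. Of 42 genes that are higher in male liver, 37 fell in mutants and 33 in wild types, with medians of -2.73 and -2.53. Only Nudt7, a peroxisomal coenzyme A hydrolase, was called among them, at -1.19 ± 0.29 (adjusted p = 0.0415), and it was called, among the fits that left out 1 library, only in those without restricted mutant 3 or 4, fed mutant 2 or restricted wild type 1 or 4 (adjusted p up to 0.1), and was not called in a fit of the 16 libraries alone. The leptin receptor gene Lepr shows the common part of the response. It rose by 5.66 in mutants and 5.27 in wild types, with an interaction of 0.38 ± 0.54 (adjusted p = 0.833).

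Sterol genes had lower diet responses in mutants than in wild types. Of 27 tested genes of cholesterol synthesis and SREBP2 targets, 25 had an interaction below 0. Called negative were 4, Sqle, Msmo1, Cyp51 and Tm7sf2, against 0.287% of all genes. The median was -1.16, and 21 of the 27 had an unadjusted p under 0.05, against 12.7% of all genes. Restriction lowered 4 of the 27 in mutants and raised none, and it raised 8 and lowered 2 in wild types. The median difference between the genotypes was -0.50 on restriction and 0.82 on free feeding, mutant minus wild type.

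Sqle, the squalene epoxidase of a rate-limiting step, had 17.1, 33.7, 34.5 and 25.6 CPM in restricted mutants, against 56.9, 47, 47.9 and 39.3 CPM in fed mutants, and 41.4, 8.6, 27.4 and 26.7 CPM in restricted wild types, against 4.27, 1.16, 4.28 and 1.24 CPM in fed wild types. Fed wild types stood below all other libraries, and restricted wild types spanned restricted mutants. In mutants all restricted libraries stood below all fed ones. The response was -0.78 ± 0.57 (adjusted p = 0.429) in mutants and 3.18 ± 0.65 (adjusted p = 0.00307) in wild types, with an interaction of -3.96 ± 0.86 (adjusted p = 0.0316). It was called, among the fits that left out 1 library, only in those without restricted mutant 3, restricted wild type 1 or 2 or 3 or 4 or fed wild type 1 or 3 (adjusted p up to 0.0801), and was not called in a fit with no filter on low counts. With the replicate number as a block Sqle was not called either.

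Msmo1, which removes methyl groups from the sterol nucleus, had 26.4, 32.8, 49.5 and 36.5 CPM in restricted mutants, against 96.1, 90.6, 79.3 and 81.2 CPM in fed mutants, and 70.9, 16.6, 85.2 and 25.6 CPM in restricted wild types, against 23.1, 20.8, 28.6 and 17.3 CPM in fed wild types. The mutant diet groups were apart, and restricted wild type 2 lay below the fed wild types while replicate 4 lay among them. Its response was -1.26 ± 0.38 (adjusted p = 0.0343) in mutants and 1.14 ± 0.38 (adjusted p = 0.054) in wild types, with an interaction of -2.40 ± 0.54 (adjusted p = 0.0339). Msmo1 was called, among the fits that left out 1 library, only in those without restricted mutant 3, restricted wild type 1 or 2 or 4 or fed wild type 3 (adjusted p up to 0.0872), and was not called in a fit of the 16 libraries alone and a fit with no filter on low counts.

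Cyp51, the lanosterol demethylase, had 54.4 to 75.4 CPM in restricted mutants, 88.1 to 139 CPM in fed mutants, 58.7 to 131 CPM in restricted wild types and 28 to 57.4 CPM in fed wild types, with an interaction of -1.81 ± 0.40 (adjusted p = 0.0308). It lost its call without restricted mutant 1 or 2 or 4, fed mutant 1 or 2, restricted wild type 3 or fed wild type 2 or 4 (adjusted p up to 0.0781), and was not called in a fit with no filter on low counts. Tm7sf2, a sterol reductase, had 24.2 to 35.7 CPM in restricted mutants, 37.6 to 50.4 CPM in fed mutants, 38.5 to 69 CPM in restricted wild types and 36.1 to 43.5 CPM in fed wild types. Its response was -0.54 ± 0.16 (adjusted p = 0.0268) in mutants and 0.51 ± 0.16 (adjusted p = 0.0368) in wild types, and the interaction was -1.05 ± 0.23 (adjusted p = 0.0205). Tm7sf2 lost its call without fed wild type 3 (adjusted p up to 0.053), and was not called in a fit of the 16 libraries alone. The sterol carrier Stard4 missed the threshold, at -1.24 ± 0.31 (adjusted p = 0.0531).

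**Figure D4:**
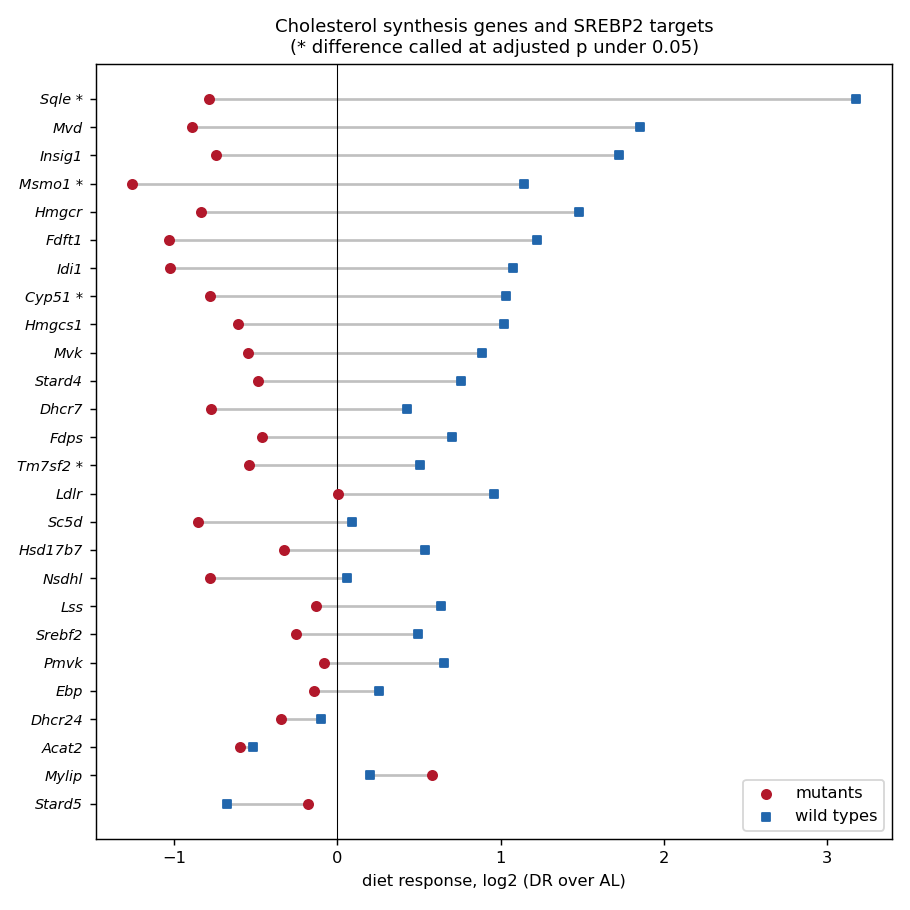
Diet response (log2, restricted over fed) of 26 of the tested cholesterol synthesis genes and SREBP2 targets in mutants (red circles) and wild types (blue squares), joined by a line for each gene. An asterisk marks the 4 called genes, and in 24 of the 26 the mutant value lies left of the wild-type value.

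The upstream bases of Msmo1, Cyp51 and Tm7sf2, called genes of this list, are shown because SREBP2 is known to act beside the factor NF-Y, which binds CCAAT. The windows of 250 bases end at the RefSeq start site (GRCm38.p6), for Msmo1 at chr8:64733579-64733828 (- strand), Cyp51 at chr5:4104698-4104947 (- strand) and Tm7sf2 at chr19:6067851-6068100 (- strand). Capitals mark CCAAT on either strand.
Msmo1: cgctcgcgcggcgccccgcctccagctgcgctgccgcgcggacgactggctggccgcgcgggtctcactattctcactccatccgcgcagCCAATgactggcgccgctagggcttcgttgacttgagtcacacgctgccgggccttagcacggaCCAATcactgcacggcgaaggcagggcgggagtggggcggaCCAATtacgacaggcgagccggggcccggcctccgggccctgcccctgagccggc
Cyp51: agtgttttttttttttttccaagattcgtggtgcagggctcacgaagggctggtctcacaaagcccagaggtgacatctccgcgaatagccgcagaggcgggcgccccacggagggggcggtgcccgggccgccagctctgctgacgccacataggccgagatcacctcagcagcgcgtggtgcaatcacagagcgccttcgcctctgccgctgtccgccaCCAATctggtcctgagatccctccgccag
Tm7sf2: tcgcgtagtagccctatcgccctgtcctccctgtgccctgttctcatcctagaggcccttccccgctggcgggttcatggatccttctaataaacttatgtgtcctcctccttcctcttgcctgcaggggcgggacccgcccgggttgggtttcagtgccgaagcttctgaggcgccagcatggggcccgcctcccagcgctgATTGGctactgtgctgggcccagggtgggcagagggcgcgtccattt
CCAAT was found in 18 of 22 windows of 19 listed genes (81.8%), against 33.8% of all 32851 windows of this length. Msmo1 holds 3, Cyp51 and Tm7sf2 1 each. The stricter sterol element TCACNCCAC, searched on both strands with N as any base, was found in 1 of the 22 windows (Hmgcs1) and in 1.05% of all windows. A match is a description of letters, and the table holds windows for 19 of the 27 tested genes. No window is printed for Sqle.

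Several enzymes of amino acid breakdown rose on restriction in mutants. Of 50 tested genes of the urea cycle and amino acid breakdown, 43 had an interaction above 0, against 48.2% of all genes. Called positive were 4, Aass, Cth, Arg1 and Gpt2, against 0.516% of all genes. The median was 0.40. In mutants 21 of the 50 rose and 3 fell on restriction, and in wild types 3 rose and 9 fell.

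Aass, the first enzyme of lysine breakdown, had 1896, 1308, 1221 and 952 CPM in restricted mutants, against 485, 515, 472 and 505 CPM in fed mutants, and 519.6, 605, 336 and 459.6 CPM in restricted wild types, against 373, 491, 480.2 and 698 CPM in fed wild types. Restricted mutants stood above all other libraries, and the other 3 groups overlapped. The response was 1.44 ± 0.19 (adjusted p = 9.32e-06) in mutants and -0.09 ± 0.19 (adjusted p = 0.812) in wild types, with an interaction of 1.53 ± 0.27 (adjusted p = 0.0026). Cth, which makes cysteine from cystathionine, had 825, 548, 476 and 385 CPM in restricted mutants, against 147, 204, 166 and 222 CPM in fed mutants, and 192, 131, 140.2 and 64.8 CPM in restricted wild types, against 122, 149, 140.1 and 182 CPM in fed wild types. Again restricted mutants were apart from the rest. Its response was 1.60 ± 0.25 (adjusted p = 0.000101) in mutants and -0.16 ± 0.24 (adjusted p = 0.725) in wild types, with an interaction of 1.76 ± 0.35 (adjusted p = 0.0114).

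Arg1, the arginase of the urea cycle, had 1635 to 2567 CPM in restricted mutants, 1032 to 1257 CPM in fed mutants, 1086 to 1535 CPM in restricted wild types and 1142 to 1307 CPM in fed wild types, with an interaction of 0.84 ± 0.19 (adjusted p = 0.0247). It was called, among the fits that left out 1 library, only in those without restricted mutant 2 or 3, fed mutant 4, restricted wild type 1 or 2 or fed wild type 1 or 2 (adjusted p up to 0.0813), and was not called in a fit of the 16 libraries alone. Gpt2, the mitochondrial alanine transaminase, had 347 to 726 CPM in restricted mutants, 412 to 468 CPM in fed mutants, 218 to 366 CPM in restricted wild types and 432 to 543 CPM in fed wild types, with an interaction of 1.09 ± 0.26 (adjusted p = 0.036). Its response was 0.39 ± 0.18 (adjusted p = 0.171) in mutants and -0.70 ± 0.18 (adjusted p = 0.0118) in wild types. Gpt2 was called, among the fits that left out 1 library, only in those without restricted mutant 3 or 4 or restricted wild type 1 or 2 (adjusted p up to 0.108), and was not called in a fit of the 16 libraries alone. Restricted mutant 1 was the highest library of its group in Aass, Cth, Arg1 and Gpt2.

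Etnppl, the lyase that breaks phosphoethanolamine down, had 698, 439, 365 and 228 CPM in restricted mutants, against 41, 90.6, 52.3 and 65.5 CPM in fed mutants, and 212, 91.9, 83.2 and 67.1 CPM in restricted wild types, against 174, 104, 144 and 145 CPM in fed wild types. Restricted mutants stood above every other library, and in wild types the diets overlapped. The response was 2.79 ± 0.35 (adjusted p = 1.63e-05) in mutants and -0.32 ± 0.33 (adjusted p = 0.592) in wild types, with an interaction of 3.11 ± 0.48 (adjusted p = 0.00165). Etnk2, the ethanolamine kinase that makes the same compound, had 132 to 196 CPM in restricted mutants, 75.5 to 129 CPM in fed mutants, 23.5 to 43.2 CPM in restricted wild types and 64.1 to 72 CPM in fed wild types. It rose in mutants, at 0.57 ± 0.18 (adjusted p = 0.0451), and fell in wild types, at -1.02 ± 0.19 (adjusted p = 0.000613), with an interaction of 1.59 ± 0.26 (adjusted p = 0.00165). Etnk2 was chosen after its values were seen.

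Among the 35 negative genes, Osgin1, a stress gene induced by oxidised lipids and a target of the antioxidant factor NRF2, had 34.8, 44.7, 43.1 and 38.1 CPM in restricted mutants, against 249, 186, 132 and 229.9 CPM in fed mutants, and 47.5, 62.2, 88.2 and 96.7 CPM in restricted wild types, against 47.7, 67.1, 70.4 and 60.2 CPM in fed wild types. Fed mutants stood above all other libraries and restricted mutants below all others. The response was -2.31 ± 0.29 (adjusted p = 1.08e-05) in mutants and 0.26 ± 0.28 (adjusted p = 0.599) in wild types, with an interaction of -2.57 ± 0.40 (adjusted p = 0.00165). Of 52 tested NRF2 targets and glutathione enzymes the only other call was positive, the glutathione transferase Gstt3 at 1.69 ± 0.33 (adjusted p = 0.0103). Of all genes 0.803% were called. The list had a median of -0.07.

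Tmem176a and Tmem176b, neighbouring genes for membrane proteins of the endosomal system that are also expressed in macrophages and dendritic cells, fell on restriction in mutants. Tmem176a had 74.1, 119, 91.2 and 113 CPM in restricted mutants, against 275, 220.2, 248 and 282 CPM in fed mutants, and 95.8, 100.0, 139 and 131 CPM in restricted wild types, against 94.8, 132, 122 and 125 CPM in fed wild types. Fed mutants were above the other 3 groups, which overlapped. The interaction was -1.34 ± 0.24 (adjusted p = 0.00398) for Tmem176a and -1.20 ± 0.20 (adjusted p = 0.00165) for Tmem176b, which was chosen after its values were seen. The summed macrophage markers given above overlapped between the diets in mutants, were higher in restricted than in fed wild types, and 18 of the 19 had an interaction below 0, the sign of Tmem176a and Tmem176b. Their part in the result was not tested.

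Other negative genes moved in wild types. Aldoc, a brain-type aldolase, had 17.3, 14.7, 14.5 and 18.3 CPM in restricted mutants, against 17.9, 21.2, 15.6 and 19.2 CPM in fed mutants, and 15.3, 17.9, 10.3 and 14.5 CPM in restricted wild types, against 5.44, 3.31, 6.4 and 4.3 CPM in fed wild types. Fed wild types stood below all other libraries, and the other 3 groups overlapped. The response was -0.19 ± 0.19 (adjusted p = 0.565) in mutants and 1.56 ± 0.20 (adjusted p = 5.37e-06) in wild types, with an interaction of -1.75 ± 0.27 (adjusted p = 0.00146). Apom, an apolipoprotein of HDL that carries sphingosine 1-phosphate, had 208, 223, 155 and 230.3 CPM in restricted mutants, against 298, 198, 226 and 225 CPM in fed mutants, and 304, 313, 392 and 399.6 CPM in restricted wild types, against 174, 187, 159 and 145 CPM in fed wild types. Restricted wild types stood above all other libraries. The response was -0.21 ± 0.15 (adjusted p = 0.413) in mutants and 1.08 ± 0.15 (adjusted p = 3.03e-05) in wild types, with an interaction of -1.30 ± 0.22 (adjusted p = 0.00181).

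Igfbp2, a binding protein that takes up insulin-like growth factors, rose in both genotypes and further in wild types. It had 395, 569, 348 and 296 CPM in restricted mutants, against 206, 161, 256 and 125 CPM in fed mutants, and 454, 246, 419 and 790.5 CPM in restricted wild types, against 65.5, 74.3, 67.5 and 77.8 CPM in fed wild types. The restricted groups overlapped, and fed mutants stood above fed wild types. The response was 1.10 ± 0.27 (adjusted p = 0.00879) in mutants and 2.74 ± 0.28 (adjusted p = 8.04e-07) in wild types, with an interaction of -1.64 ± 0.38 (adjusted p = 0.0364). It was called, among the fits that left out 1 library, only in those without restricted mutant 2, fed mutant 2 or 4 or restricted wild type 1 or 2 or 3 (adjusted p up to 0.0829), and was not called in a fit of the 16 libraries alone and a fit with no filter on low counts. With the replicate number as a block Igfbp2 was not called either. It was the only one of 23 tested genes of the growth hormone and IGF-1 axis to be called, against 0.803% of all genes. Inhbc, which encodes the activin C chain made by hepatocytes, fell in mutants at -1.75 ± 0.23 (adjusted p = 1.08e-05) and did not pass in wild types at -0.21 ± 0.22 (adjusted p = 0.599). It had 10.5 to 21.8 CPM in restricted mutants, 44.6 to 58.9 CPM in fed mutants, 45 to 89.8 CPM in restricted wild types and 60 to 99 CPM in fed wild types, and the interaction was -1.54 ± 0.32 (adjusted p = 0.0148).

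Of 46 tested complement and coagulation genes 37 had an interaction below 0, with a median of -0.34. Of these 46 genes 3 were called, against 0.803% of all genes. Mbl2, a lectin that starts complement, was at -1.17 ± 0.27 (adjusted p = 0.0322) and C1ra, a protease of the C1 complex, at -0.84 ± 0.20 (adjusted p = 0.0403). The anticoagulant Pros1 was positive at 1.03 ± 0.23 (adjusted p = 0.0254). Mbl2 lost its call without restricted mutant 1 or 4, fed mutant 1 or 4 or fed wild type 1 or 3 or 4 (adjusted p up to 0.0858). C1ra was called, among the fits that left out 1 library, only in those without restricted mutant 3, fed mutant 2, restricted wild type 1 or 2 or fed wild type 4 (adjusted p up to 0.0971), and was not called in a fit of the 16 libraries alone. Pros1 lost its call without restricted mutant 1 or 2, fed mutant 2 or 3 or fed wild type 2 or 4 (adjusted p up to 0.0714), and was not called in a fit of the 16 libraries alone. In mutants 16 of the 46 fell and 1 rose on restriction, and in wild types 7 fell and 7 rose.

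In 13 of the 34 gene lists no member was called, with list medians from -0.41 to 0.59. Of all genes 0.803% were called, so a list of this size without a call is no result about its pathway. Cytosolic ribosomal proteins rose in both genotypes, 37 of 81 in mutants and 63 in wild types, and 70 of the 81 had an interaction below 0, with a median of -0.20. In the interaction 2 of the 81 (2.47%) had an unadjusted p under 0.05, against 12.7% of all genes. Of nuclear genes of oxidative phosphorylation 31 of 77 rose in mutants and 7 in wild types, and 59 had an interaction above 0, at a median of 0.14. Here 10 of the 77 (13%) had an unadjusted interaction p under 0.05, near the share of all genes. All 13 mitochondrially encoded subunits had values above 0, at a median of 0.59, and none had an unadjusted p under 0.05. Chaperones of the endoplasmic reticulum had 30 of 35 and heat shock chaperones 25 of 31 values below 0, with medians of -0.40 and -0.41. An unadjusted p under 0.05 was found for 4 (11.4%) of the former and 9 (29%) of the latter. Of 50 interferon response genes none was called, and 2 (4%) had an unadjusted p under 0.05, against 12.7% of all genes. Their median difference between the genotypes was 1.00 on restriction and 1.06 on free feeding, mutant minus wild type. None of 34 p53 targets was called, 6 (17.6%) had an unadjusted p under 0.05, and the median was -0.11.

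**Figure D5:**
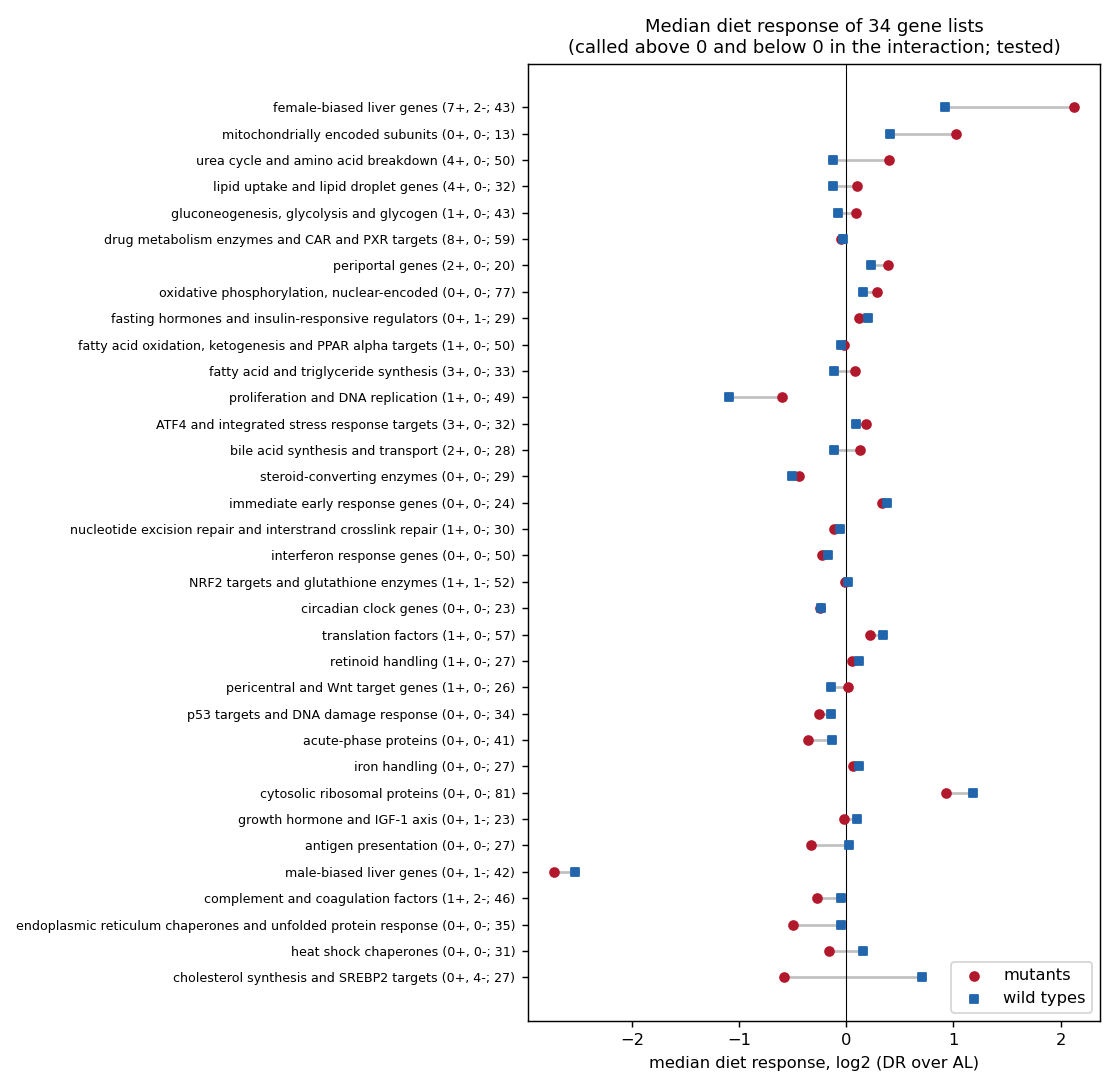
Median diet response (log2, restricted over fed) of 34 gene lists in mutants (red circles) and wild types (blue squares), ordered by the median interaction. Brackets give called positive genes, called negative genes and tested genes, and the cholesterol list, with 4 negative calls of 27, lies at the bottom with medians on either side of 0.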

How the data were processed

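The deposited table holds whole-number counts of ribosome footprints per gene for 24 mouse liver libraries, per the file headers. The submitters' processing notes name Trimmomatic 0.39, cutadapt 3.4, Bowtie2 2.4.2, STAR 2.7.0f and 2.7.8a, featureCounts from Subread 1.6.4 and the build GRCm38.p6. How reads that match several genes were counted is not given in the sources used here.

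Of 22429 genes, 12211 passed edgeR's filterByExpr and were tested. Counts were scaled by TMM and fitted with edgeR 4.0.16 (R 4.3.3) by quasi-likelihood over all 24 libraries in 6 groups, with 18 residual degrees of freedom and a biological coefficient of variation of 24.2%. The interaction and the diet response of each genotype were contrasts of this fit, with Benjamini-Hochberg adjusted p over all tested genes and a threshold of 0.05. "Called" means past it. A log2 value stands with its SE, computed as its size over the square root of the quasi-likelihood F, and CPM values are TMM-scaled. A run on simulated counts tested the steps.

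Genes are named by rule: the 15 largest called interactions in each direction with at least 5 CPM in a group, up to 6 members per list, up to 3 per marker list and a few tracked genes, of which a selection is given. The members and lists were chosen with earlier results of these data known. The labels do not say whether replicate numbers pair the livers, and the main fit used no pairing. Alternatives were DESeq2 1.42.0, RLE scaling, other filters, the 16 libraries alone, a replicate block and leaving out each library. One gene of the cholesterol list is not reported here by name.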

Additional observations from a re-analysis of the deposited data

Results flagged for a closer look

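Over 61 named genes and 4 groups of 4 livers, 11 of 244 combinations held a library far from its 3 fellows, and chance gives about 1 in 20. They were Cyp2b10 in restricted mutant 1 (75.7 CPM), Cyp2b19 and Cyp2c50 in restricted mutant 2 (7.04 and 1052 CPM) and Gpt2 in fed mutant 2 (468 CPM). In restricted wild types they were Cyp2c67, Cyp2c68 and Etnppl in replicate 1 (389, 456 and 212 CPM), Fitm1 in replicate 2 (2.71 CPM) and Cyp2b23 in replicate 3 (77.7 CPM). In fed wild types they were Slc10a2 in replicate 2 (82.0 CPM) and Cyp2b19 in replicate 4 (10.6 CPM).

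The diet responses differed between the genotypes in 98 genes by the interaction term, and 53 of them are named here with their log2 value, mutant minus wild type. In lipid genes they were Cd36 (3.55), Fitm1 (2.70), Mogat1 (2.91), Vldlr (2.55), Pnpla2 (1.43), Scd1 (2.75), Scd2 (2.89), Scd3 (2.81), Scd4 (2.97), Insig2 (1.78) and Acss3 (1.76). In P450 genes they were Cyp2b9 (3.51), Cyp2b10 (3.55), Cyp2b13 (3.54), Cyp2b23 (2.40), Cyp2c29 (2.51), Cyp2c38 (2.22), Cyp2c39 (2.32), Cyp2c40 (-1.58), Cyp2c67 (-1.50), Cyp2c68 (-1.27), Cyp2c69 (-1.60), Cyp3a11 (1.77), Cyp3a16 (1.92), Cyp3a41a (2.24), Cyp3a41b (2.24) and Cyp3a44 (1.96). In sterol and bile acid genes they were Sqle (-3.96), Cyp51 (-1.81), Msmo1 (-2.40), Tm7sf2 (-1.05), Slc10a2 (3.75), Acox2 (1.36) and Abcg5 (1.29). In genes of amino acids and ethanolamine they were Aass (1.53), Cth (1.76), Arg1 (0.84), Gpt2 (1.09), Etnppl (3.11) and Etnk2 (1.59). The others were Osgin1 (-2.57), Gstt3 (1.69), Apom (-1.30), Aldoc (-1.75), Igfbp2 (-1.64), Inhbc (-1.54), Treh (3.45), Tmem176a (-1.34), Tmem176b (-1.20), Nudt7 (-1.19), Mbl2 (-1.17), C1ra (-0.84) and Pros1 (1.03).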

How the results depend on the processing

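The count of 98 genes with a called interaction was 279 by DESeq2 (175 positive and 104 negative, all 98 among them). It was 96 with RLE scaling, 88 with no filter on low counts, 101 with a filter at 5 CPM and 66 in a fit of the 16 libraries alone. Leaving out each library in turn gave 63 to 204 genes, with the highest count without restricted wild type 1 and the lowest without fed mutant 4. The count of the diet response was 933 to 1627 in mutants and 939 to 1866 in wild types over the same fits. With the replicate number as a block 112 genes were called, 92 of them among the 98, and of the called genes named here Sqle, Igfbp2 and Abcg5 were not called. The labels do not say whether the numbers pair the livers. Deviations of same-numbered livers correlated at a median of 0.00777 (24 pairs), against 0.00685 for other pairs (72). The correlation was over 0.1 in 4 of the 24 and in 7 of the 72, and these values cannot decide whether livers were paired. The cause of these shifts was not tested. All 98 genes kept their sign whichever library was left out, and 41 kept their call in every alternative run. A gene that a filter drops counts there as a lost call, so 41 is not a count of calls that passed every test made. Genes near 1 CPM, such as Treh, Mogat1 and Vldlr in their low groups, rest on few counts, and 4 livers a group limit what can be called.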
